A study of Homo sapiens and Mus musculus with 5 samples.

Results

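The reporter output of schizophrenia-linked DNA fragments was compared directly between SH-SY5Y, a human neuroblastoma cell line with neuronal characteristics, and HEK-293T, a human embryonic kidney line that carries a viral large T antigen and takes up plasmid readily. The comparison held the 1529 fragment alleles that were present in the plasmid input in the tables of both lines, of 1625 in the series. They came from 945 fragments at 345 SNPs, and 584 fragments had both alleles. One plasmid pool was transfected with the Xfect reagent into each line in triplicate, and polyadenylated reporter RNA was sequenced from 3 libraries per line. The plasmid input was sequenced before transfection, was shared by both lines and had a median mean count of 3591 per allele, between 42 and 27402.7. The labels' protocols call the replicates biological and give neither genotype, treatment nor time beyond transfection. Each group is a single cell line, so neural origin cannot be told apart from any other property of that line. The tables hold reporter fragments and no genes of the cells, so no marker of either cell type could be read, and plasmid recovered from transfected cells was not used here.

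STARR-seq places candidate fragments inside the transcribed part of a reporter, so that a fragment with enhancer activity raises the amount of its own RNA. Enhancers are bound by transcription factors, and many are active in some cell types and silent in others because the factors differ. Most common variants linked to schizophrenia lie outside protein-coding sequence, which is why reporter assays in neural and other cells are used to read them. The direct comparison between these lines addresses whether fragments act differently in a neural line and in a line chosen for reporter work.

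Fragments placed the SNP 50, 100 or 150 bases from their front end, and these placements are named by that distance. All 3 placements were present for 267 SNPs, 2 for 66 SNPs and 1 for 12 SNPs. The members of a SNP overlap in sequence, least so between the 50- and 150-front placements. The tables number the alleles 1 and 2, and which base each number stands for was not used here. SNPs were named by chromosome and position in 325 cases and by rs number in 20 cases. The sources used here give no genome build. Among the 325 positions, 219 fell within a protein-coding gene of GRCh38.p14. When the same positions were moved along the chromosome by 200 to 3000 kb, at most 188 did so in any of 30 trials. Gene names below hold if the positions are GRCh38. A name says that the SNP lies between the ends of that gene, since exons and introns were not read.

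Fragments of 3 SNPs, among others that overlapped a RefSeq promoter window, are shown because they let part of the assayed DNA be read with its activity. The genes of these windows are on the minus strand. A printed stretch is not covered whole by every placement. The 3 SNPs were chosen after values had been seen. The sequences are from RefSeq, GRCh38.p14, on the gene's strand, written 5′ to 3′ with the reference base at the SNP in capitals. The ZNF823 stretch is chr19:11738918-11739071 and has the SNP 25 bases after the gene's start. The IZUMO1 stretch is chr19:48746881-48747132, and its SNP, at 48746982, lies upstream of the gene's start at 48746909. The FTCDNL1 stretch is chr2:199851246-199851442, and its SNP, at 199851396, lies upstream of the start at 199851192.
ZNF823: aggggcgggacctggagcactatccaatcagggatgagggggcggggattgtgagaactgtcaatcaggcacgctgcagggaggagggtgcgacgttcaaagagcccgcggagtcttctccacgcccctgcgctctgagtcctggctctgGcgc
IZUMO1: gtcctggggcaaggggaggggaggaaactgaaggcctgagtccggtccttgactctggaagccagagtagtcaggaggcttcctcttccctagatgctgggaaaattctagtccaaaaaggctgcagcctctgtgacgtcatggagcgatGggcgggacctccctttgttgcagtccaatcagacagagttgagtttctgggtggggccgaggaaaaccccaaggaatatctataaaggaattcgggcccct
FTCDNL1: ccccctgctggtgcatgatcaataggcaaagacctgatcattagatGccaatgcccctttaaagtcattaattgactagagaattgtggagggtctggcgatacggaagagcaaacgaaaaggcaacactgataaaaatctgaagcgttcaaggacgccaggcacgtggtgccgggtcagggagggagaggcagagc

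The 3 stretches were 64.3% (ZNF823), 55.2% (IZUMO1) and 50.8% (FTCDNL1) G or C. They were searched on both strands for a CCAAT box (CCAAT), a GC box (GGGCGG) and a cAMP response element (TGACGTCA). Each stretch held 1 CCAAT box, and the same slice held one in 22.9%, 31.6% and 26.9% of all 35116 promoter windows, in the order ZNF823, IZUMO1, FTCDNL1. The GC box occurred at 2 places for ZNF823 (36.5% of promoters held at least 1 in that slice) and 1 place for IZUMO1 (42.9%). The cAMP response element occurred for IZUMO1 alone (1.79% of promoters). In the IZUMO1 stretch the GC box began at base 151, which is the SNP base. In the FTCDNL1 stretch the CCAAT box began at base 48, and the SNP base was base 47. These matches describe letters and say nothing of binding.

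The 6 RNA libraries held 10118321, 7110525 and 7270750 counts in SH-SY5Y replicates 1 to 3, and 6078170, 7817201 and 7087219 counts in HEK-293T replicates 1 to 3. Library HEK-293T 2 stood apart by its zeros, with 236 alleles (15.4%) at 0, against 30 in SH-SY5Y 2 and 15 to 55 in the other 4 libraries. Those 236 alleles had a median of 536 counts in SH-SY5Y 2 and of 536 counts in HEK-293T 3, where the medians over all alleles were 2989 and 3049. In the median they were thus low in other libraries too, though not at 0. Their median input was 1318.5 counts, and 137 of them were among the 383 alleles with the lowest input. Both lines also had a replicate 1 unlike replicates 2 and 3. Over the 1199 alleles with no count of 0, the median absolute log2 difference in normalised CPM, counts scaled to a common library size, was 0.308 between SH-SY5Y 1 and HEK-293T 1. It was 0.731 and 0.759 between SH-SY5Y 1 and the other SH-SY5Y libraries, and 0.817 and 0.681 between HEK-293T 1 and the other HEK-293T libraries. Replicates 2 and 3 differed by 0.335 in SH-SY5Y, but by 0.552 in HEK-293T. HEK-293T 2 thus stood apart in its non-zero values too, at 0.538 to 0.830 from every other library. The closest pair of all, SH-SY5Y 2 and HEK-293T 3, differed by 0.269 and came from different lines. No pair agreed within counting error, with a chi-square per degree of freedom of at least 244.

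No allele differed between the lines past the threshold. The test was edgeR's quasi-likelihood test with the replicate number as a block, two-sided, with Benjamini-Hochberg adjustment over all 1529 alleles. It called 0 of 1529 alleles (0%) at an adjusted p of 0.05. The lowest adjusted p of this edgeR fit was 0.994, and 32 alleles (2.09%) had an unadjusted p under 0.05. In normalised CPM, 35 alleles (2.29%) were higher in every SH-SY5Y library than in any HEK-293T library, and 34 (2.22%) were lower. Limma-voom also called 0 alleles (0%), with 98 (6.41%) under an unadjusted p of 0.05. DESeq2's Wald test called 42 (2.75%), with 174 (11.4%) under the unadjusted threshold. These 42 calls had no count of 0 and were split into 21 higher (1.37%) and 21 lower (1.37%) in SH-SY5Y. When DESeq2 was given the 1199 alleles without a 0 alone, an alternative added after seeing the data, 1 call was left, an allele in PCNX3. The adjusted p-values that follow are edgeR's unless another tool is named.

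The log2 difference, SH-SY5Y over HEK-293T, had a median of 0.02 and an SD of 0.53 over the 1199 alleles with no count of 0. Its 5th and 95th percentiles were −0.87 and 0.71, and it ranged between −2.94 and 2.60. The scaling sets the middle of each library near the same level, so a difference common to most fragments would not be seen. Precision was limited: the median half-width of an allele's 95% interval was 1.16 on the log2 scale over all alleles. For 438 alleles (28.6%) the whole interval lay within a 2-fold difference either way, and for 949 (62.1%) within 4-fold. For the remaining alleles a difference of over 4-fold was not excluded by the interval. A fitted difference over 4-fold occurred for 106 alleles, of which 95 had a count of 0. Of the 75 of these on the higher side, 64 were at 0 in HEK-293T 2, while 31 lay on the lower side. The spread of the difference was widest at low input: over 4 equal classes from low to high input its SD was 0.71, 0.58, 0.44 and 0.41 over alleles with no count of 0.

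The line term was smaller than the replicate terms of the same edgeR fit. Each replicate term rests on fewer libraries a side and is less precise, and the sizes were not tested against each other. Its median absolute size was 0.26 on the log2 scale, and 6.17% of the 1199 alleles exceeded a 2-fold difference. Replicate 2 against replicate 1 had a median absolute size of 0.69, with 33.4% of alleles over 2-fold. Replicate 3 against replicate 1 had 0.71, with 32.4% over 2-fold, and replicate 3 against replicate 2 had 0.33, with 10.3%. Over all 1529 alleles, zeros included, the sign of the difference was the same in all 3 replicate pairs for 411 (26.9%). Of these, 226 (14.8% of all) were higher and 185 (12.1% of all) lower in SH-SY5Y. Among the 236 alleles at 0 in HEK-293T 2, all but 9 were above 0 in SH-SY5Y 2, which fixed that pair as higher.

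Counts were next summed over all alleles and placements of a SNP, which share sequence. At this level edgeR called 0 of 345 SNPs (0%), with 32 (9.28%) at an unadjusted p under 0.05. Without replicate 3 of both lines, edgeR called 3 SNPs (0.87%), with 28 (8.12%) at an unadjusted p under 0.05. With all replicates, the lowest adjusted p, 0.110, belonged to a SNP in PPP2R3A and a SNP in PCNX3. PPP2R3A encodes a regulatory subunit of protein phosphatase PP2A. Its SNP, at position 136050568 of chromosome 3, had 15750.0, 22520.0 and 28080.0 CPM in SH-SY5Y, against 12570.0, 17000.0 and 23380.0 CPM in HEK-293T. Each SH-SY5Y library exceeded the HEK-293T library of its number, while the groups overlapped. The log2 difference was 0.34 ± 0.061 (SE, n = 3 libraries per line), with a 95% interval of 0.20 to 0.48, and the adjusted p of edgeR ranged between 0.0868 and 0.998 over 9 alternatives. The difference was thus small in size, and with the replicate number as a block its interval excluded a difference of 2-fold either way. That bound rests on pairing the libraries by number. Without the block, the lowest edgeR adjusted p of any SNP was 0.998.

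The alleles of the PPP2R3A SNP contributed unequally to the total. Allele 2 with 100 bases in front had 5945, 14888 and 18725 CPM in SH-SY5Y, against 4745, 9246 and 15408 CPM in HEK-293T, a log2 difference of 0.43 ± 0.15 (SE). It gave most of the total in replicates 2 and 3 of both lines, but not in replicate 1. Allele 1 of the same fragment had 650.2, 333 and 311 CPM in SH-SY5Y, against 494, 162 and 360.5 CPM in HEK-293T, a difference of 0.41 ± 0.39. The alleles thus had similar fitted differences with unlike precision. With 150 bases in front, the differences were 0.04 ± 0.23 for allele 1 and 0.32 ± 0.21 for allele 2. With 50 bases in front they were 0.03 ± 0.55 and −0.40 ± 0.31.

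PCNX3 encodes a member of the pecanex family of membrane proteins. The SNP at position 65616284 of chromosome 11 had 3091, 3690.0 and 2713 CPM in SH-SY5Y, against 1705, 1998 and 1659 CPM in HEK-293T. The groups did not overlap. The SNP-level log2 difference was 0.83 ± 0.15 (SE, n = 3 libraries per line), with an interval of 0.47 to 1.18 and an adjusted p that ranged between 0.0703 and 0.998 over 9 alternatives of the edgeR fit. All 4 of its alleles present in both lines had a positive difference. Allele 1 with 50 bases in front had 648, 1877 and 970.3 CPM in SH-SY5Y, against 287, 767 and 536 CPM in HEK-293T, a difference of 1.11 ± 0.19 (SE). Allele 1 with 150 bases in front had 1064, 903 and 1271 CPM in SH-SY5Y, against 368, 774 and 661 CPM in HEK-293T, a difference of 0.90 ± 0.33. These placements share the SNP and the bases next to it. Allele 2 had a difference of 0.34 ± 0.28 with 100 bases in front. With 150 bases in front it was at 0 in HEK-293T 2, and its 95% interval of −5.52 to 10.72 sets no useful bound. The 50-front allele was the one that DESeq2 called with and without the alleles holding a 0, at an adjusted p of 5.31e-09 and of 0.0158, while over all 25 alternatives its adjusted p reached 1.

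Other SNPs among the lowest p-values at this level had an adjusted p of 0.400 and did not pass. The SNP at position 73610828 of chromosome 2, which lies 909 bases from ALMS1, a gene for a protein of the ciliary basal body, had 5620.0, 6225 and 8111 CPM in SH-SY5Y. It had 8658, 9734 and 9234 CPM in HEK-293T, a log2 difference of −0.48 ± 0.12 (SE) with no overlap. The SNP in RASSF1, a tumour suppressor gene, had 9418, 8823 and 9468 CPM in SH-SY5Y, against 7612, 5590.0 and 8021 CPM in HEK-293T, a difference of 0.41 ± 0.11 (SE), likewise with no overlap. Summed over both alleles of a fragment, edgeR called 0 of 584 fragments (0%), with 32 (5.48%) at an unadjusted p under 0.05 and a lowest adjusted p of 0.823.

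Since no allele passed, the alleles named are the 10 in each direction with the smallest unadjusted p and the same sign in all 3 replicate pairs. All 20 had an edgeR adjusted p of 0.994, with unadjusted values between 0.00494 and 0.0288. In 5 of the 20 the lines did not overlap. Over all 1529 alleles, 35 (2.29%) lay wholly above and 34 (2.22%) wholly below. The choice by small p-values favours alleles without overlap, so the count of 5 has no test. All 20 were among DESeq2's 42 calls. On the higher side, after the PCNX3 allele, came allele 1 of the 50-front fragment in SPG7, the gene of the mitochondrial protease paraplegin, at position 89543010 of chromosome 16. It had 1275, 2699.5 and 2527 CPM in SH-SY5Y, against 806, 1562 and 1789 CPM in HEK-293T, a log2 difference of 0.65 ± 0.12 (SE). Allele 1 of the 150-front fragment in NDRG4, a gene with high expression in brain and heart, had 204, 1096 and 1364 CPM in SH-SY5Y, against 85.3, 625 and 779 CPM in HEK-293T. Its difference was 0.96 ± 0.22, but replicate 1 lay far below replicates 2 and 3 in both lines, so the groups overlapped. Allele 2 of that fragment lay the other way, at −0.35 ± 0.21. A 150-front allele at position 66573497 of chromosome 11, which lies 4891 bases from CTSF, the gene of the lysosomal protease cathepsin F, had a difference of 0.52 ± 0.13.

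SMG6 encodes an endonuclease of nonsense-mediated mRNA decay. Allele 2 of its 100-front fragment, at position 2254480 of chromosome 17, had 2284, 2106 and 2252 CPM in SH-SY5Y, against 1708, 1584 and 1657 CPM in HEK-293T. The replicates of each line lay close together, with no overlap and a difference of 0.42 ± 0.10 (SE). Relative to input, this fragment lay slightly above in SH-SY5Y, at a log2 ratio of 0.17, and slightly below in HEK-293T, at −0.26. Allele 2 of the 100-front fragment of rs3900555 had 1531, 1471 and 1537 CPM in SH-SY5Y, against 967, 1023 and 1225 CPM in HEK-293T, a difference of 0.51 ± 0.14, again with no overlap. In IQANK1, allele 1 differed by 0.86 ± 0.22 with 100 bases in front and by 0.57 ± 0.17 with 150 in front. Allele 2 differed by 0.37 ± 0.33 with 100 in front, by −0.29 ± 0.20 with 150 and by −0.04 ± 0.19 with 50. Allele 1 of 50-front fragments differed by 0.60 ± 0.17 in IFT57, a gene of intraflagellar transport, and by 0.53 ± 0.15 in THAP8, which encodes a THAP-type zinc finger protein. The other IFT57 alleles with no count of 0 lay the other way, at −0.07 ± 0.65 and −0.34 ± 0.39.

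Largest in size on the lower side were an allele in ADAMTSL3 and one in SEPTIN3. ADAMTSL3 encodes an ADAMTS-like protein of the extracellular matrix, and allele 2 of its 150-front fragment, at position 84037709 of chromosome 15, had 214, 141 and 57.7 CPM in SH-SY5Y. In HEK-293T it had 447, 578 and 194 CPM. The log2 difference was −1.62 ± 0.44 (SE), and the groups overlapped. SEPTIN3 encodes a septin, a GTP-binding cytoskeletal protein, found in neurons. Allele 1 of its 100-front fragment, at position 41974987 of chromosome 22, had 79.4, 294 and 80.3 CPM in SH-SY5Y, against 295, 743 and 224 CPM in HEK-293T, a difference of −1.57 ± 0.38. This allele was below input in both lines, at a log2 ratio of −3.54 in SH-SY5Y and −1.97 in HEK-293T.

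The 3 named lower alleles without overlap were at SLCO6A1, near PPARGC1A and near MAN2A1. In SLCO6A1, a gene of the organic anion transporter family, allele 2 of the 100-front fragment had 707, 509.6 and 551 CPM in SH-SY5Y, against 1221, 953 and 877 CPM in HEK-293T, a difference of −0.79 ± 0.17 (SE). The SNP nearest to PPARGC1A, a transcriptional coactivator of mitochondrial biogenesis, lies 370041 bases from it. Allele 2 of its 150-front fragment had 201, 384 and 135 CPM in SH-SY5Y, against 439, 793 and 400.1 CPM in HEK-293T, a difference of −1.25 ± 0.31. For the SNP 13318 bases from MAN2A1, a mannosidase gene of the Golgi, allele 2 of the 150-front fragment had 168, 342 and 236 CPM in SH-SY5Y, against 391, 759 and 445 CPM in HEK-293T. The difference was −1.10 ± 0.29. In the alleles near PPARGC1A and near MAN2A1, HEK-293T activity lay close to input, at log2 ratios of 0.19 and 0.33, and SH-SY5Y activity below it, at −1.06 and −0.77.

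The other lower alleles had smaller or overlapping differences. Allele 2 of the 150-front fragment in EXOC4, a subunit gene of the exocyst complex, had 218, 781 and 525 CPM in SH-SY5Y, against 434, 1701 and 839 CPM in HEK-293T, a difference of −0.93 ± 0.20 (SE). Allele 2 of the 100-front fragment in FANCI, a gene of DNA crosslink repair, had 2416, 1322 and 1614 CPM in SH-SY5Y, against 3259, 1887 and 2209.9 CPM in HEK-293T, a difference of −0.47 ± 0.10. Allele 1 of the FANCI fragment had −0.58 ± 0.20, so that this fragment had the smallest p at the fragment level, with a difference of −0.53 ± 0.13 and an edgeR adjusted p of 0.823. The differences were −0.57 ± 0.12 at a SNP 380754 bases from CCNH, −0.72 ± 0.19 at a SNP 11510 bases from PCDHA1 and −0.41 ± 0.10 in FAM120A. CCNH encodes cyclin H, PCDHA1 a clustered protocadherin of neuronal adhesion and FAM120A an RNA-binding protein.

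The named alleles were set beside the other alleles of their SNPs that had no count of 0. Of 53 such alleles, 37 had a difference of the same sign, with alleles of the IQANK1 SNP counted beside each of its named alleles. Single SNPs varied, with 0 of 2 in IFT57, 0 of 1 in NDRG4 and 2 of 5 near PCDHA1. In SLCO6A1 it was 5 of 5, and in THAP8 4 of 4. The named alleles were picked for small p-values, so these counts have no test. Over all members, the differences of a SNP's placements were weakly related. Across alleles with no count of 0, Pearson's r of the log2 difference was 0.0909 between the 50- and 100-front placements (n = 228), 0.162 between 100 and 150 (n = 261) and 0.0070 between 50 and 150 (n = 236). The sign was the same for 54.8%, 59.0% and 46.2% of these pairs. Between alleles 1 and 2 of a fragment it was 0.162 (n = 356), and 55.1% had the same sign. The log2 ratio of RNA to input was weakly related as well. Its r between the 50- and 150-front placements was 0.0822 in SH-SY5Y and 0.109 in HEK-293T. Between alleles 1 and 2 its r was 0.293 in SH-SY5Y and 0.237 in HEK-293T. These points share libraries, so the values are descriptions. The median difference was 0.02 for 50, 0.05 for 100 and 0.01 for 150 bases in front, with SDs of 0.52, 0.52 and 0.54. Alleles wholly above HEK-293T numbered 15 of 488, 12 of 522 and 8 of 519 in these placements, and wholly below 7, 10 and 17. Over all 1529 alleles these numbers were 35 (2.29%) and 34 (2.22%). A trend over placements was not tested.

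Whether the RNA ratio of allele 2 over allele 1 differed between the lines was tested in 584 fragments. EdgeR called 0 (0%), with 3 (0.514%) at an unadjusted p under 0.05, and limma-voom called 0 with 10 under that threshold. The smallest unadjusted p, 0.0216 in the edgeR fit, belonged to the 150-front fragment of NDRG4, with an adjusted p of 0.951. Its log2 ratios of allele 2 over allele 1 in RNA counts were 2.07, −0.42 and −1.13 in SH-SY5Y, against 3.37, 1.09 and −0.03 in HEK-293T. The ratio was lower in SH-SY5Y in each replicate pair, by −1.30 ± 0.32 (SE), while the replicates of either line spanned more than that. In MIGA2, a mitochondrial fusion gene at position 129038245 of chromosome 9, the 100-front fragment had ratios of 4.67, 3.87 and 5.54 in SH-SY5Y, against 3.75, 3.02 and 3.91 in HEK-293T, an interaction of 1.13 ± 0.31. The 150-front fragment of IQANK1 had ratios of −0.91, 0.61 and 0.23 in SH-SY5Y, against −0.43, 1.81 and 1.16 in HEK-293T, an interaction of −0.87 ± 0.28. The next fragments were in FAHD2B, with −2.15 ± 0.91, and in RAB3IL1, a gene for a Rab3A exchange factor, with 0.66 ± 0.30. These ratios are in RNA and are not corrected for the input, which cancels between the lines.

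Gene lists were read by the gene that holds the SNP. The all-allele values beside them are 32 of 1529 alleles at an unadjusted edgeR p under 0.05, 35 wholly above, 34 wholly below, and a median difference of 0.02 over alleles with no 0. Ion channels and neurotransmitter receptors were represented by GRM3, a metabotropic glutamate receptor gene, and CACNA1C, a calcium channel subunit gene, with 16 alleles. Of these, 1 had an unadjusted p under 0.05, 0 lay wholly above and 1 wholly below. The median difference was −0.18 over the 10 with no 0. The 50-front allele 2 at position 86790810 of chromosome 7, in GRM3, had 767, 1491 and 1286 CPM in SH-SY5Y, against 1021, 1856 and 1629 CPM in HEK-293T, a difference of −0.36 ± 0.12 (SE). The 150-front allele 2 of the same SNP had 608, 510.2 and 633 CPM in SH-SY5Y, against 901, 713 and 796 CPM in HEK-293T, a difference of −0.46 ± 0.19 with no overlap. Neither passed in edgeR (adjusted p = 0.994), and DESeq2 called both with Benjamini-Hochberg adjusted p-values of 0.000424 and 0.0230. The 150-front allele 1 of this SNP lay the other way, at 0.50 ± 0.56. The lowest allele of the list with no 0 was the 100-front allele 1 at position 86773947, also in GRM3, at −0.52 ± 0.34. The channel and receptor alleles were thus few, with the difference over all placements of the GRM3 SNP at 86790810 not uniform in sign.

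The list of adhesion, synapse and neurite genes had 20 alleles, 15 of them in MSRA, an oxidative repair enzyme gene, and the rest in the protocadherin gamma cluster. Most of its values are therefore those of MSRA. In the list, 0 alleles were at an unadjusted p under 0.05, 1 was wholly above and 1 wholly below, neither in MSRA. The median difference was 0.04 over the 14 alleles with no 0. The lowest was the 150-front allele 2 at position 141474289 of chromosome 5, within the gamma cluster of protocadherins, which are adhesion proteins of neurons. It had 31.6, 161 and 216 CPM in SH-SY5Y, against 228, 475 and 355 CPM in HEK-293T, a difference of −1.70 ± 0.65 (SE) without overlap. Transcription, chromatin and RNA genes had 80 alleles, 1 at an unadjusted p under 0.05, 3 wholly above and 0 wholly below. Their median was 0.11 over the 66 with no 0. Metabolism and transport genes had 90 alleles, 3 at an unadjusted p under 0.05, 3 wholly above and 1 wholly below. Their median was 0.03 over the 71 with no 0. EdgeR called 0 alleles in each list.

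At individual loci the medians over alleles with no 0 ranged between −0.86 for MANBA and 0.12 for TCF4, with 2 and 3 alleles behind them. With its allele that held a 0, the MANBA median was −0.45. In TCF4, a transcription factor gene of neural development, the differences of 3 alleles with no 0 lay between −0.01 ± 0.27 and 0.32 ± 0.20 (SE). In MAD1L1, a gene of the spindle checkpoint, 13 alleles had a median of 0.01, between −0.87 ± 0.37 and 0.38 ± 0.29. In MSRA, which encodes methionine sulfoxide reductase A, 11 alleles had a median of 0.06, between −0.64 ± 1.02 and 0.48 ± 0.62. Each of these extremes has a 95% interval that includes 0. In the region of CNNM2 and NT5C2 on chromosome 10, the median was −0.49 over the 9 alleles with no 0 and −0.17 over all 12. Its lowest allele, 150-front allele 1 in the magnesium transport gene CNNM2, had 132, 107 and 47.1 CPM in SH-SY5Y, against 267, 157 and 137 CPM in HEK-293T, a difference of −1.04 ± 0.70 without overlap. The 73 alleles with no 0 of the SNPs named by rs number had a median of 0.01, between −1.39 and 1.88.

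Activity, the log2 ratio of normalised RNA CPM to mean input CPM, was also read in both lines for the same alleles. The lines share the input, so the likeness of their activities is in part fixed, and no relation between them is given. An activity over 1, a doubling over input relative to the typical fragment, was found for 153 SH-SY5Y alleles and 140 HEK-293T alleles, and 114 were shared. An activity under −1 was found for 179 SH-SY5Y alleles and 170 HEK-293T alleles, 99 were shared, and 2 alleles were over 1 in one line and under −1 in the other. All of these counts are over the 1199 alleles with no 0. In all 6 libraries, 146 alleles exceeded input, 7 of them at least 2-fold, and 309 were below it, 30 of them at least 2-fold.

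Ranked by the library nearest to input among the 6, the 3 highest alleles were in PPP2R3A and LY6H. PPP2R3A allele 2 had activities of 2.01, 3.34 and 3.67 in SH-SY5Y, against 1.69, 2.65 and 3.39 in HEK-293T, with 100 bases in front. With 150 in front it had 2.36, 2.61 and 3.20 in SH-SY5Y, against 1.84, 2.79 and 2.58 in HEK-293T. With 50 in front it was instead below input, at a mean of −2.57 in SH-SY5Y and −2.17 in HEK-293T. The 50-front placement was thus the lowest in both lines, while the order of the 100- and 150-front placements changed between libraries of each line. LY6H, which encodes a lipid-anchored protein of the Ly6 family, had activities of 1.74, 4.74 and 4.44 in SH-SY5Y, against 1.35, 4.21 and 4.05 in HEK-293T, for the 50-front allele 2, whose input was low at 298 counts. By mean activity, a 150-front allele 1 at position 19367213 of chromosome 19, 8459 bases from MAU2, also ranked above the PPP2R3A alleles, at 3.09 in SH-SY5Y and 2.91 in HEK-293T. Its input was 166 counts, and its lowest library was HEK-293T 1 at 1.15. Its fragment overlapped the promoter window of LOC124904656, on the minus strand, by 82 bases.

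By the same ranking, the 3 lowest alleles were in MANBA, PLCL1 and MAU2. In MANBA, the gene of lysosomal beta-mannosidase, the 100-front allele 1 had activities of −5.64, −5.29 and −5.43 in SH-SY5Y, against −5.96, −3.86 and −5.17 in HEK-293T. In PLCL1, which encodes a phospholipase C-like protein, the 50-front allele 1 had −4.12, −3.85 and −3.94 in SH-SY5Y, against −5.65, −6.95 and −4.49 in HEK-293T. The PLCL1 groups did not overlap, but the fitted difference of 1.71 ± 1.63 (SE) had an interval of −2.92 to 6.34 at these low counts. In MAU2, a gene of the cohesin loader, the 150-front allele 1 had −4.10, −4.65 and −4.96 in SH-SY5Y, against −2.71, −3.14 and −6.46 in HEK-293T.

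The promoter fragments printed above showed no difference between lines past the threshold. ZNF823 encodes a zinc finger protein, and its fragments had inputs between 7445 and 14119 counts. In the 50-front fragment, allele 2 had activities of −0.31, −0.72 and −0.24 in SH-SY5Y, against −1.12, −0.81 and −1.03 in HEK-293T. Allele 1 had −0.41, 1.01 and 1.55 in SH-SY5Y, against −1.06, 1.02 and 0.41 in HEK-293T. Allele 2 did not overlap between the lines, and its log2 difference was 0.56 ± 0.22 (SE, edgeR adjusted p = 0.994). Mean activity was lower for allele 2 than for allele 1 in each placement: −0.42 against 0.72, −0.64 against 0.22 and −0.12 against 0.51 in SH-SY5Y with 50, 100 and 150 bases in front. In HEK-293T the means were −0.99 for allele 2 against 0.12 for allele 1, −0.75 against −0.07 and −0.47 against 0.60. The order of the alleles was therefore alike in both lines in these means, while single replicates varied and the allelic effect was not tested here.

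IZUMO1 encodes a sperm protein needed for fusion with the egg. Its 150-front allele 2 had activities of −1.25, −0.36 and 0.04 in SH-SY5Y, against −1.17, −0.84 and 0.15 in HEK-293T, a difference of 0.09 ± 0.25 (SE). Its 150-front allele 1 averaged 2.05 in SH-SY5Y and 2.04 in HEK-293T, but its input was 269 counts and replicate 1 was below input in both lines. The 150-front fragment of IZUMO1 overlaps the promoter window up to 48747032, so printed bases above that position are not part of it. At FTCDNL1, the 100-front allele 2 had −1.45, −0.11 and 0.89 in SH-SY5Y, against −2.18, 0.13 and 0.06 in HEK-293T. Allele 1 of that fragment had −2.07, −2.10 and −2.67 in SH-SY5Y, against −2.42, −1.71 and −1.88 in HEK-293T. Allele 2 was the higher of both alleles in each of the 6 libraries, and the line differences were 0.45 ± 0.34 for allele 2 and −0.27 ± 0.63 for allele 1. In the 50-front fragment the means had the reverse order, at −1.39 (allele 2) and −1.21 (allele 1) in SH-SY5Y. In HEK-293T they were −1.71 (allele 2) and −1.15 (allele 1). There allele 2 was the higher in replicate 1 of both lines and the lower in replicates 2 and 3. The 100- and 50-front fragments of FTCDNL1 cover 147 and 97 of the 197 printed bases. The 150-front fragment covers all of them, and its allele 2 had means of −1.66 in SH-SY5Y and −2.05 in HEK-293T.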

How the data were processed

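Reporter RNA and plasmid input were read as deposited whole-number counts per allele, 1 table per line with 3 RNA and 3 input columns, per the file headers. Per the labels' protocols, RNA was reverse-transcribed and amplified by PCR, and no molecular identifiers are mentioned, so depth bounds counting error alone. The submitters' processing notes name limma 3.40.6. The sources used here give no aligner, counting tool or build. Alleles absent from a table are written there as 0 throughout.

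In R 4.3.3, the alleles in both tables with a mean RNA count of at least 10 (all 1529) were tested with edgeR 4.0.16 (quasi-likelihood, trimmed-mean scaling, replicate block, Benjamini-Hochberg, adjusted p of 0.05), on alleles, on sums over a fragment or a SNP, and for allele by line. DESeq2 1.42.0, limma 3.58.1, other scalings and filters, and left-out libraries were alternatives. The input cancels between lines and entered activity only. SEs come from the estimate and its F statistic. Scripts were tested on simulated data. The members, gene lists and tests were chosen with earlier results of these data known. Named alleles were up to 10 per direction that passed and kept 1 sign over the 3 pairs, filled by the smallest unadjusted p. Also named were the 3 highest and 3 lowest in all 6 libraries and the 5 fragments with the smallest interaction p. The rule also took the extremes of each list, but not all of these are printed. Other named members were chosen after values were seen.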

Additional observations from a re-analysis of the deposited data

How the results depend on the processing

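EdgeR and limma called 0 alleles at each setting run. DESeq2's Wald test called 42, and the added DESeq2 fit without alleles holding a 0 called 1. Leaving out each replicate number in turn gave between 0 and 0 alleles, 0 and 1 fragments, 0 and 3 SNPs, and 0 and 0 interactions. Without replicate 3, edgeR called the 100-front fragment 909 bases from ALMS1 (log2 difference −1.38, adjusted p 0.0155, over 9 alternatives 0.0155 to 0.994). At the SNP level it called 3 SNPs. These were in ADAMTSL3 (−1.53, adjusted p 0.00680), near ALMS1 (−0.67, 0.0103) and in SLC9B1 (1.81, 0.0224), and over 9 alternatives each reached 0.998. With the 3 replicates, the SNP-level differences were −0.85, −0.48 and 1.07. Apart from those SNPs and that fragment, the alleles, fragments and SNPs chosen by the naming rule or by their smallest p gave 592 values that kept direction and side of the threshold. Another 21 passed it, all in DESeq2, and none reversed. With no replicate block, edgeR called 0 alleles, with 1 at an unadjusted p under 0.05. The deviations of same-numbered libraries correlated at 0.546, 0.121 and 0.0984 for replicates 1 to 3. Since the last is under 0.1, the numbers are not shown to pair the libraries, and SH-SY5Y 2 correlated best with HEK-293T 3 (0.208). Scaling by library size alone moved the alleles above input in all 6 libraries to 166 and those below to 274, against 146 and 309. Low input, 0 values and 3 libraries a line limit the precision.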

Other observations

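Some alleles were present in the table of 1 line alone and entered no comparison. The 33 in the SH-SY5Y table had a median input of 1512 counts and a median RNA count of 325, with 22 RNA values at 0. Their median log2 ratio of RNA to input was −0.45. The 32 in the HEK-293T table had a median input of 637.5 counts and a median RNA count of 119.5, with 26 RNA values at 0. Their median log2 ratio was −0.66. Both sets lay below the median input of 3591 counts of the alleles present in both tables.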
